A study of Mus musculus with 9 samples.

Results

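The genes described here are 10 that mark Kupffer cells, the macrophages that live in the liver sinusoids: Clec4f, Clec1b, Vsig4, Marco, Cd163, Folr2, Cd5l, Id1, Id3 and Spic. They were chosen by symbol from the 45777 gene IDs of the deposited tables, matched through RefSeq, and all 10 were found and passed the filter on low values, which kept genes reaching 1 TPM in 3 or more samples. TPM (transcripts per 1000000) is a level per transcript length and per library. Positions are those of the deposited tables, in mm10. RNA was measured in CD11b+ cells, the myeloid cells of the liver, isolated 48 hours after intraperitoneal acetaminophen (APAP), a drug that destroys hepatocytes in excess and was given here to induce acute liver failure. All 9 samples received APAP, so no level in an uninjured liver was measured. The PBS group (n = 3) received buffer, the HEK-EV group (n = 3) received intravenous extracellular vesicles (EV) labelled HEK cell derived SIRP-EV, HEK being a line of human embryonic kidney origin, and the MSC-EV group (n = 3) received SIRP-EV labelled as MSC derived. Vesicles were given 8 hours after APAP. Mouse strain, age, sex and whether a sample is 1 animal or a pool are not given in the sources used here, so the p-values measure the spread between these samples.

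Kupffer cells arise before birth, renew themselves in the sinusoid and remove bacteria, aged red cells and debris from portal blood. Their identity depends on signals from neighbouring endothelial, stellate and parenchymal cells, among them Notch ligands and ligands of the TGF-beta and BMP family, which act through RBPJ, SMAD proteins, LXR-alpha, ID proteins and SPIC. After acetaminophen, monocytes from the blood enter the liver and become macrophages beside the resident ones. Macrophages of recent monocyte origin carry little Clec4f, Vsig4 or Timd4 at first, which is why these genes are read as marks of residency.

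Promoters are shown first for the genes the results turn on, some of which shared their lowest samples while others did not. Any link between the promoter letters and that pattern was not tested. RefSeq (GRCm38.p6) gave promoter windows for 9 of the 10 genes, 10 windows in all since Folr2 has a pair of start sites. The 250 bases before the start are printed 5′ to 3′ on the gene's own strand, with capitals marking the purine-rich ETS-type motif GAGGAA or its reverse complement. The lectin gene Clec4f (chr6:83656117-83656366, minus strand), the complement receptor gene Vsig4 (chrX:96293439-96293688, minus strand) and the secreted-protein gene Cd5l (chr3:87357631-87357880, plus strand) had the same 3 lowest samples, whereas Id3 (chr4:136143572-136143821, plus strand) and Spic (chr10:88683024-88683273, minus strand) did not.
Clec4f: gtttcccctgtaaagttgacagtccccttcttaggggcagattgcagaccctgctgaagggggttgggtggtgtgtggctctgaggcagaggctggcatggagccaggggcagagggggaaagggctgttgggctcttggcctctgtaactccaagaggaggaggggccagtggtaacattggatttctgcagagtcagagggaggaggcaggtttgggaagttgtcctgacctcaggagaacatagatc
Vsig4: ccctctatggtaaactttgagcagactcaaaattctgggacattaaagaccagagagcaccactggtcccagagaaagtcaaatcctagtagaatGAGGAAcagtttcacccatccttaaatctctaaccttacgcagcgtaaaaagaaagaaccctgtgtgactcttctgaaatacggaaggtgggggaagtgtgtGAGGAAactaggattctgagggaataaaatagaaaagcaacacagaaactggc
Cd5l: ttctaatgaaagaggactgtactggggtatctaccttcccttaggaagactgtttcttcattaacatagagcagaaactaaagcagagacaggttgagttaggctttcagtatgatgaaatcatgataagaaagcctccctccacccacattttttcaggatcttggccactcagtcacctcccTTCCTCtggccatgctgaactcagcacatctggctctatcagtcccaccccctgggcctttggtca
Id3: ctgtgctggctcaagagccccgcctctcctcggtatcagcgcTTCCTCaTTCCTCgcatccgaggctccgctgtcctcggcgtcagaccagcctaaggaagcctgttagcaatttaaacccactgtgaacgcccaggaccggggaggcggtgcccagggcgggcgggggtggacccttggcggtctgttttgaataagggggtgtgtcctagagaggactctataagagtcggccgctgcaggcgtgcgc
Spic: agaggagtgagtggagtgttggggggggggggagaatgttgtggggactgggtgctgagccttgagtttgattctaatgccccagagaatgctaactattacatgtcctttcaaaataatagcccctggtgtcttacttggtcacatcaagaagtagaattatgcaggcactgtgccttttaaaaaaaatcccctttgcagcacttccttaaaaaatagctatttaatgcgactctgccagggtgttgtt
GAGGAA was found in 4 of the 10 windows, those of Marco, Cd5l, Id3 and Vsig4, against 23.3% of all 32851 RefSeq windows of the same length. It was added to the search after the planned motifs had been read. The shorter GGAA within it was not counted, and it also occurs in the printed Clec4f and Spic windows. The E-box CANNTG was in 5 of the 10 windows, those of Cd163, Clec1b, Cd5l and both of Folr2, against 66.2% of all. None of the 10 windows held the SMAD1/5 element GGCGCC (9.59% of all windows), the SMAD4 box CAGACA (17.1%) or the RBPJ site GTGGGAA (5.42%). The longer PU.1 and SPIC site GAGGAAGT (2.44%), which contains GAGGAA, was in none of them either. The LXR DR4 (0.0152%) and MAF (0.134%) motifs were likewise not among these letters, and all motifs were searched on both strands. Base composition ran from 33.2% G and C in the Clec1b window to 62.8% in that of Id3, beside a median of 52.4% over all windows.

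Of the surface receptors, Clec4f, a galactose-binding C-type lectin of mouse Kupffer cells (chr6:83644542-83656116, minus strand), stood at 668, 635 and 538 TPM in PBS replicates 1 to 3, at 323, 592 and 705 TPM in HEK-EV, and at 307, 265 and 498 TPM in MSC-EV. Every MSC-EV sample lay below every PBS sample, and HEK-EV replicate 1 lay with the low MSC-EV samples. Group means were 614 ± 67.5, 540.0 ± 196 and 357 ± 124 TPM (SD, n = 3 each). The limma difference of MSC-EV from PBS was -0.83 (SE 0.30) on the log2(TPM + 1) scale, with an unadjusted p of 0.0198 and an adjusted p of 0.130, so it did not pass the threshold of 0.05.

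Clec1b, which encodes CLEC-2, the lectin receptor for podoplanin (chr6:129397297-129405413, plus strand), read 122, 99.7 and 99.3 TPM in PBS, 66.1, 101 and 120.1 TPM in HEK-EV, and 71.4, 54.9 and 98.8 TPM in MSC-EV. The MSC-EV samples were again all below the PBS samples, but replicate 3 lay less than 1 TPM below the lowest of them. The difference of MSC-EV from PBS was -0.54 (SE 0.24; adjusted p = 0.220, limma). CLEC-2 is also a platelet receptor, so platelet transcripts were read beside it: Itga2b was at 0.378 to 1.21 TPM over the 9 samples and Gp9 was at most 0.11 TPM. Pf4, a chemokine stored in platelets and also made by macrophages, was at 128.9 to 349.7 TPM and was higher in MSC-EV than in PBS by 0.83 (log2; adjusted p = 0.0348, limma), a call kept in 3 of the 9 fits that left out 1 sample. The other 3 of the 4 platelet-list genes past the filter, Clec1b among them, were lower on average, and Itga2b, below the filter, was lower in every MSC-EV sample than in every PBS sample. Clec12b overlaps Clec1b on the opposite strand, and the strand setting of the counting is not given in the sources used here, so reads of the 2 genes may be mixed.

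Vsig4, the complement receptor CRIg that captures C3b-coated particles (chrX:96247201-96293438, minus strand), was measured at 470.5, 433 and 355 TPM in PBS, 237, 439 and 419 TPM in HEK-EV, and 260.4, 212 and 415 TPM in MSC-EV. MSC-EV replicate 3 lay inside the PBS range and the other MSC-EV samples lay below it. The group difference was -0.55 (SE 0.28; adjusted p = 0.275, limma).

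Cd163, the scavenger receptor for haptoglobin-haemoglobin complexes (chr6:124304636-124330529, plus strand), had the widest split of the receptors after Marco. PBS samples read 89.6, 89.2 and 72.1 TPM, HEK-EV samples 38.2, 86.2 and 108 TPM, and MSC-EV samples 34.1, 31.8 and 87.4 TPM. MSC-EV replicates 1 and 2 and HEK-EV replicate 1 were thus at or below 38.2 TPM, while the other 6 samples were at 72.1 TPM or more. The difference of MSC-EV from PBS was -0.85 (SE 0.43; adjusted p = 0.273, limma), with a 95% interval from -1.81 to 0.11. A predicted gene, Gm52877, overlaps Cd163 on the opposite strand.

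Marco, a class A scavenger receptor for bacteria and particles (chr1:120474538-120505024, minus strand), ranged most: 245, 382 and 466 TPM in PBS, 232, 366 and 873 TPM in HEK-EV, and 163, 113 and 281 TPM in MSC-EV. Its highest sample was 7.73 times its lowest, against 1.35 to 3.39 times for the other 9 genes. HEK-EV replicate 3 was the highest of all samples and MSC-EV replicate 2 the lowest. MSC-EV differed from PBS by -1.02 (SE 0.48; adjusted p = 0.243) and from HEK-EV by -1.27 (SE 0.48; unadjusted p = 0.0251, adjusted p = 0.147) in limma, and neither passed. Without HEK-EV replicate 3 the difference from HEK-EV was -0.75.

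Folr2, the folate receptor beta of tissue macrophages (chr7:101839988-101857190, minus strand), was at 192, 157 and 135 TPM in PBS, 98.9, 166 and 172 TPM in HEK-EV, and 149, 111 and 173 TPM in MSC-EV. The 3 groups overlapped, and MSC-EV differed from PBS by -0.17 (SE 0.23; adjusted p = 0.729, limma). A predicted gene on the other strand, Gm10602, overlaps it.

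Cd5l, a secreted scavenger-type protein also called AIM that binds lipids and supports macrophage survival (chr3:87357881-87371074, plus strand), was the most abundant of the 10 genes per transcript length. It read 1457, 1256 and 1027 TPM in PBS, 835, 1279 and 1381 TPM in HEK-EV, and 929, 717 and 1101 TPM in MSC-EV. MSC-EV replicate 3 was within the PBS range. The difference of MSC-EV from PBS was -0.45 (SE 0.22; adjusted p = 0.251, limma).

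Of the regulators, Id1 and Id3 encode inhibitors of DNA binding that pair with basic helix-loop-helix factors and are classical targets of BMP signalling. They lie at chr2:152736251-152737410 and chr4:136143822-136145392, both on the plus strand. Id1 stood at 157, 112 and 117 TPM in PBS, 96.0, 103 and 123 TPM in HEK-EV, and 92.6, 107 and 119.9 TPM in MSC-EV. Id3 stood at 352, 319 and 246 TPM in PBS, 269, 264 and 239 TPM in HEK-EV, and 270.4, 259 and 276 TPM in MSC-EV. Both overlapped between all groups. MSC-EV differed from PBS by -0.26 (SE 0.15; adjusted p = 0.327, limma) for Id1 and by -0.17 (SE 0.12; adjusted p = 0.432, limma) for Id3. Id3 varied little within the vesicle groups, with SDs of 16.1 TPM in HEK-EV and 8.64 TPM in MSC-EV around means of 258 and 269 TPM.

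Spic, the ETS factor of red pulp macrophages and other macrophages that recycle heme iron (chr10:88675269-88683023, minus strand), was the steadiest of the 10. It read 62.2, 58.9 and 65.1 TPM in PBS, 77.2, 67.2 and 79.3 TPM in HEK-EV, and 65.6, 60.7 and 65.9 TPM in MSC-EV. All HEK-EV samples were above all samples of the other groups. HEK-EV exceeded PBS by 0.26 (SE 0.075; unadjusted p = 0.00677) and MSC-EV stood 0.21 below HEK-EV (SE 0.075; unadjusted p = 0.0182), but the adjusted limma p-values were 0.999 and 0.123. MSC-EV against PBS gave 0.04 (95% interval -0.12 to 0.21).

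**Figure D1:**
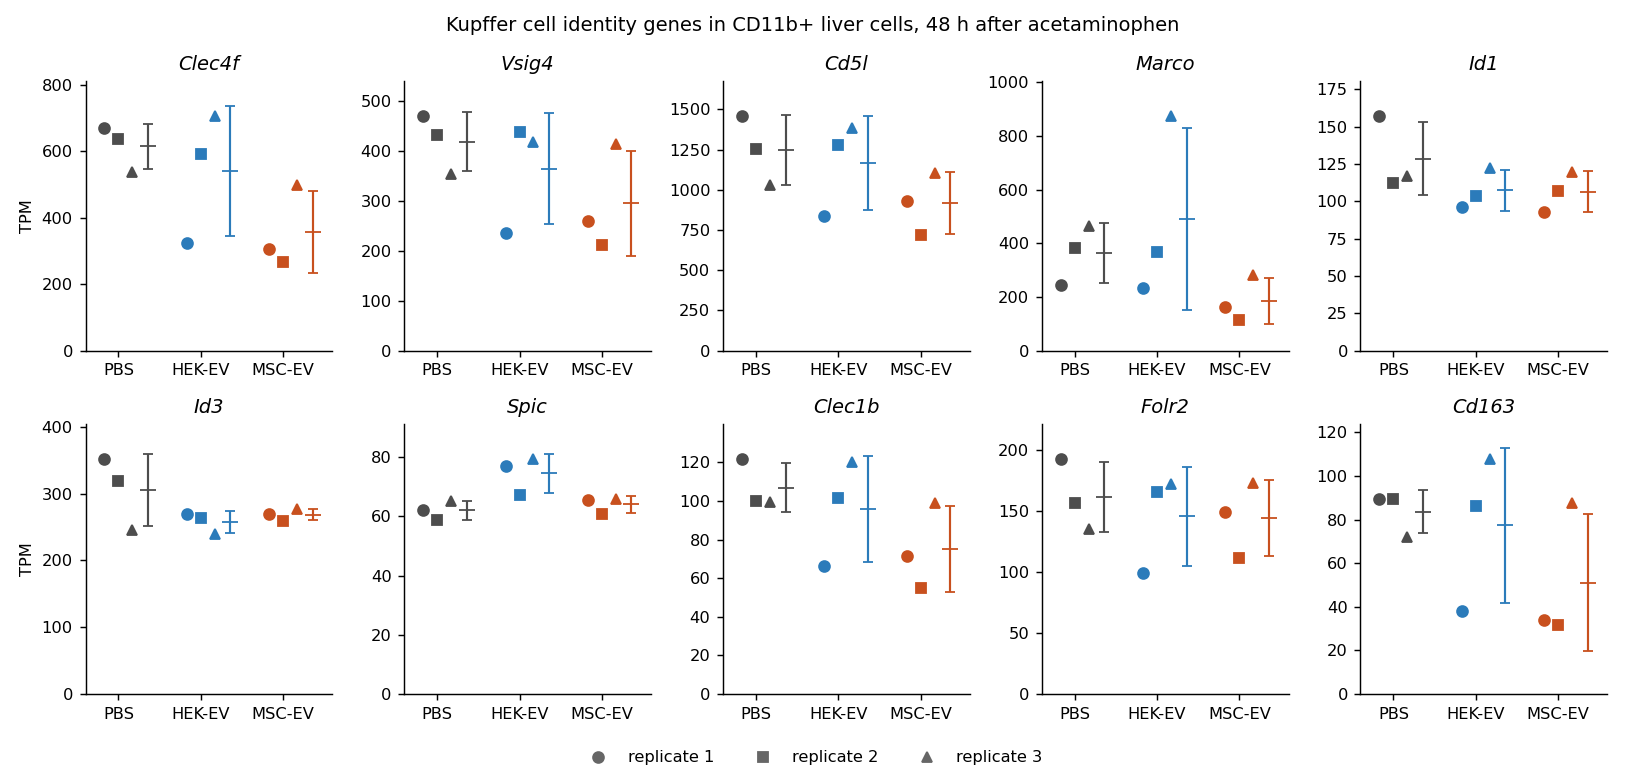
TPM (vertical axes, from 0) of each of the 10 genes in each sample of the 3 groups, with the mean and SD (n = 3) beside the points and a marker shape per replicate number. HEK-EV replicate 1 and MSC-EV replicates 1 and 2 were the 3 lowest samples for Clec4f, Vsig4, Cd5l, Marco, Clec1b and Cd163. That is 6 of the 10 genes, beside 3.47% of the 13820 genes tested, for 3 samples picked from the values of these same genes. Spic stayed between 58.9 and 79.3 TPM.

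In MSC-EV against PBS, 9 of the 10 genes were lower on average and Spic was higher, with a median difference of -0.50 (log2) beside 0.01 over the 13820 genes tested, 47.7% of which were lower. The limma fit with Benjamini-Hochberg adjustment called 0 of the 10, with adjusted p-values from 0.130 to 0.778, and 5.11% of all genes (1.86% higher and 3.25% lower). At an unadjusted p under 0.05 it gave 1 of the 10, Clec4f, beside 23.0% of all genes. The groups did not overlap for 2 of the 10, Clec4f and Clec1b, beside 26.0% of all genes. These counts were at or below the background. The count over all genes, 706, rested on single samples. Refitted without PBS replicate 2 it was 5, without PBS replicate 3 it was 7, without MSC-EV replicate 1 it was 25 and without MSC-EV replicate 2 it was 59, whereas without PBS replicate 1 it was 1861, of which 694 were among the 706. A fit with array quality weights, which gives samples that vary more less weight, was the exception among the alternatives. It called Marco, Vsig4, Clec4f and Cd163 lower (adjusted p = 0.0121 to 0.0475, limma), 4 of the 10 beside 4163 of the 13820 genes tested. That fit gave PBS replicate 2 a weight of 4.11 and PBS replicate 1 a weight of 0.354.

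HEK-EV against PBS showed 8 of the 10 genes lower and Marco and Spic higher, with a median of -0.21 beside 0.03 over all genes. None of the 10 was called by limma, and neither was any other gene (0.0%). At an unadjusted p under 0.05 there was 1 of the 10, Spic, beside 3.58% of all genes, and the groups did not overlap for 1 of the 10, again Spic, beside 7.81%. Most of these directions rested on single samples. Without HEK-EV replicate 1, Clec4f, Vsig4, Cd5l, Clec1b, Folr2 and Cd163 were higher in HEK-EV than in PBS, by 0.04 to 0.21 (log2). Cd5l also turned without PBS replicate 1. Marco ran from -0.27 to 0.684 with 1 sample left out, and turned to lower in 2 of those 9 fits. The 3 PBS samples serve both vesicle comparisons, so these are not independent of each other.

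MSC-EV against HEK-EV compares vesicles of different cell source given at the same time. There, 8 of the 10 genes were lower in MSC-EV, with a median of -0.32 beside -0.02 over all genes. Limma called 0 of the 10, beside 5.91% of all genes (1.51% higher and 4.4% lower), or 817 genes. A refit lacking HEK-EV replicate 1 called 1 gene, a refit lacking HEK-EV replicate 3 called 31, and those lacking HEK-EV replicate 2, MSC-EV replicate 1 or MSC-EV replicate 2 called 0. Marco and Spic had an unadjusted p under 0.05, 2 of the 10 beside 23.3% of all genes, and the groups did not overlap for Spic alone, beside 30.1%. For Folr2 and Id1 the difference was 0.01 (95% interval -0.51 to 0.53) and -0.01 (95% interval -0.34 to 0.32).

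**Figure D2:**
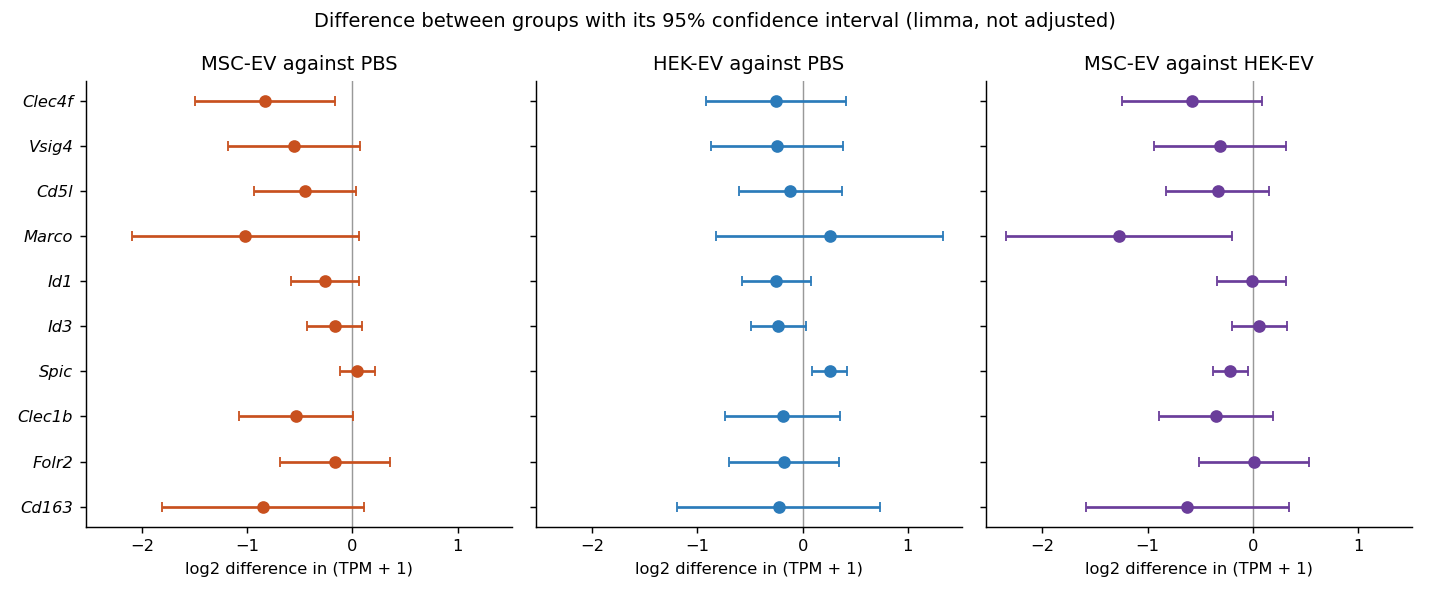
Difference between groups in log2(TPM + 1) on the horizontal axes, with its unadjusted 95% confidence interval from limma, for the 10 genes in the 3 comparisons. The interval lies wholly below 0 for Clec4f in MSC-EV against PBS and for Marco and Spic in MSC-EV against HEK-EV, and wholly above 0 for Spic in HEK-EV against PBS.

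The spread within groups was itself a feature of most of these genes. The pooled SD of log2(TPM + 1) within groups was 0.45 for Clec4f, 0.42 for Vsig4, 0.65 for Cd163 and 0.73 for Marco. The median over the 2554 genes at least as abundant as the least abundant of the 10 was 0.094. By that measure 7 of the 10 genes (Marco, Cd163, Clec4f, Vsig4, Clec1b, Folr2 and Cd5l) ranked between percentiles 96.9 and 99.9. Id1 ranked at percentile 90.6, Id3 at 83.2 and Spic at 48.6.

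Apart from Marco, which is given separately because its correlations were lower (0.449 with Folr2 to 0.817 with Clec4f), the receptor and secreted-protein genes Clec4f, Vsig4, Cd5l, Clec1b, Cd163 and Folr2 had Pearson r of 0.776 to 0.977 and Spearman rho of 0.683 to 0.983 over their 15 pairs and 9 samples. Without Folr2, left out after its correlations were seen, the 10 pairs of the other 5 had Pearson r of 0.915 to 0.977 and Spearman rho of 0.817 to 0.983, and of the deviations from group means the r was 0.873 to 0.985. These are descriptions with no test, since the points share libraries and 3 samples lay apart from the other 6 for Clec4f (265 to 323 TPM against 498 to 705 TPM). Leaving out the 2 samples farthest from the Clec4f median, MSC-EV replicates 1 and 2, the r with Clec4f was 0.919 for Vsig4, 0.946 for Cd5l, 0.958 for Clec1b and 0.944 for Cd163 over 7 samples. Folr2 had an r of 0.776 with Clec4f over 9 samples and 0.872 over those 7, and Marco 0.817 and 0.56. Id1 (0.667), Id3 (0.271) and Spic (0.0405) followed Clec4f less closely over the 9. HEK-EV replicate 1 stays in among those 7. Over the 6 samples outside the low 3, the r with Clec4f was 0.884 for Cd5l, 0.796 for Clec1b and 0.692 for Cd163. It was 0.542 for Vsig4, 0.423 for Folr2 and 0.406 for Marco, each lower than over the 9. Those 6 samples were picked by their Clec4f level and span a narrower range of it, which can lower r by itself. What the likeness of these genes to Clec4f rested on was thus not tested.

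The ratios between the genes within a sample were as follows. Clec1b was 0.157 to 0.233 times Clec4f in TPM, a 1.48-fold range, while Clec4f itself ranged 2.66-fold. Since Clec4f was lower in every MSC-EV sample than in every PBS sample, ratios to it were higher in MSC-EV without overlap for 71.5% of all genes, and for 7 of the 9 other genes described here (Vsig4, Cd5l, Id1, Id3, Spic, Clec1b and Folr2). Folr2 against Clec4f was 0.247 to 0.288 in PBS, 0.244 to 0.306 in HEK-EV and 0.347 to 0.487 in MSC-EV. Relative to Clec4f, Folr2 was thus higher in every MSC-EV sample than in all 6 other samples, as were 7.45% of all genes. The same held for 2 of the 9 genes, the other being Vsig4, at 0.798 to 0.849 times Clec4f in MSC-EV, 0.660 to 0.704 in PBS and 0.594 to 0.742 in HEK-EV. Spic against Clec4f was 0.0927 to 0.121 in PBS, 0.112 to 0.239 in HEK-EV and 0.132 to 0.229 in MSC-EV.

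The genes most like each of the 10 were taken from 9669 genes with a mean of at least 5 TPM, by Pearson r of log2(TPM + 1) over the 9 samples. Clec4f was followed most closely by Fcna (r = 0.993), the ficolin A gene, then by Timd4 (0.991), the phosphatidylserine receptor of resident macrophages, Ptgs1 (0.982), Dysf (0.980) and Pcolce2 (0.980). Over the 6 samples outside the low 3, Fcna and Timd4 had an r of 0.965 and 0.963 with Clec4f. Fcna was also among the closest 5 for Vsig4 (0.964), Clec1b (0.973) and Cd163 (0.977). Cd5l was closest to Vopp1 (0.991), Epb41l3 (0.982), Stab2 (0.976), Masp1 (0.975) and Slc43a3 (0.975), of which Stab2 is a hyaluronan receptor of sinusoidal endothelium. The nearest to Marco was Jaml (0.974), followed by Ecm1 (0.962) and Ppp1r15a (0.957). Id1 was closest to Nop56 (0.961), Id3 to Arhgap17 (0.901), Folr2 to Adcy4 (0.970) and Spic to Spidr (0.950), none of them shared with the Clec4f list. Of the 5 genes closest to Clec4f, none passed the limma threshold in MSC-EV against PBS (adjusted p = 0.063 to 0.16).

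**Figure D3:**
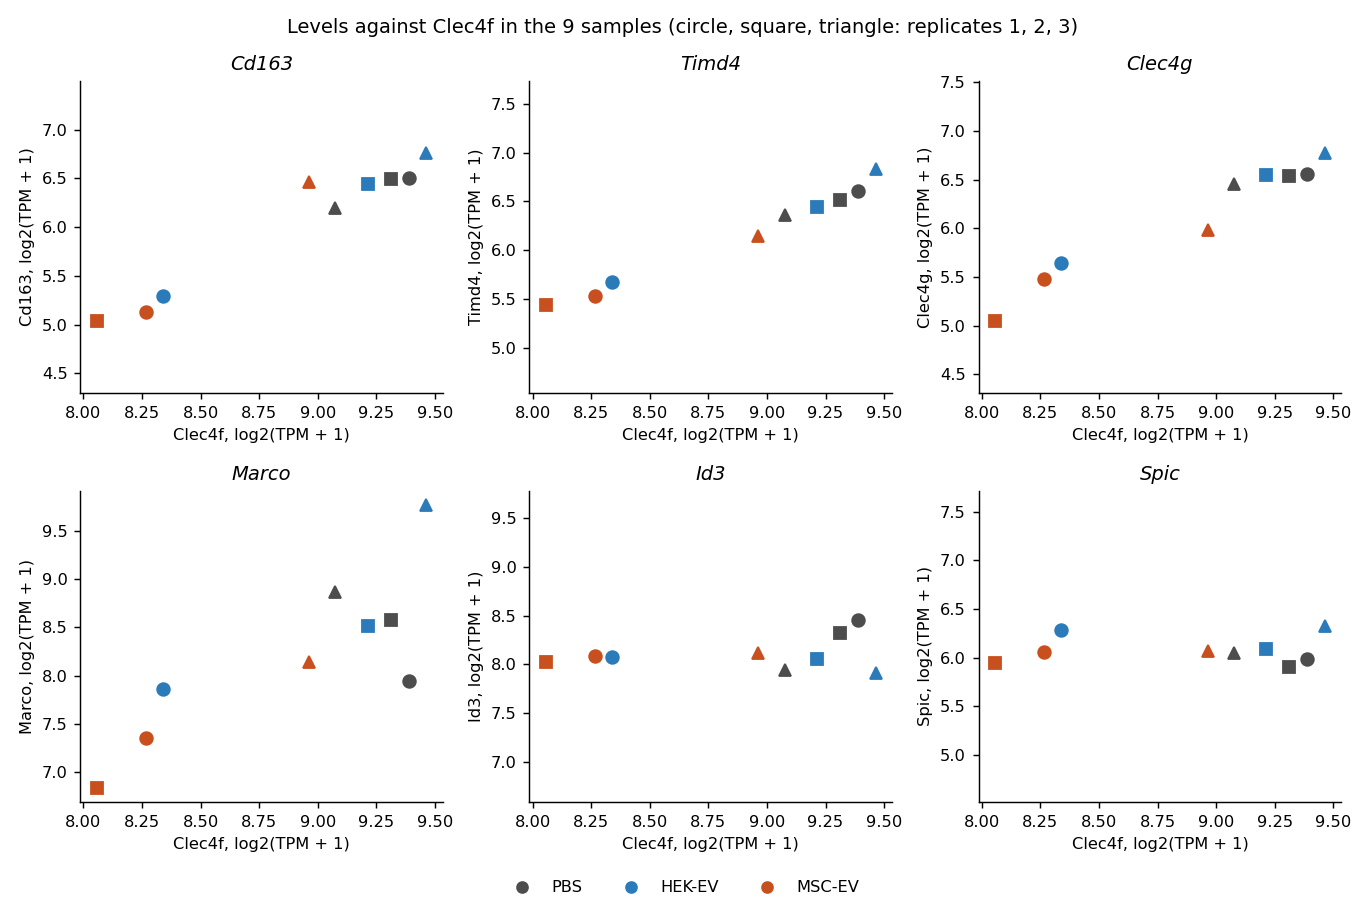
Level of 6 genes against Clec4f in each of the 9 samples, both axes in log2(TPM + 1), coloured by group. Cd163, Timd4 and the endothelial gene Clec4g climb with Clec4f, Marco does so loosely, and Id3 and Spic run level across the Clec4f range.

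Lists of other genes are given next as counts. No call of a list gene held in all 9 fits that left out 1 sample: the 24 list genes called in MSC-EV against PBS kept their call in 0 to 6 of the 9, and the 33 called in MSC-EV against HEK-EV in 1 to 5. Each call below is read with that limit. Among 25 other genes of Kupffer cells, 20 were lower and 5 higher in MSC-EV than in PBS, with a median of -0.27, and 0 passed in limma while 7 had an unadjusted p under 0.05. Timd4 read 96.5, 90.1 and 81.3 TPM in PBS, 50.05, 85.9 and 113 TPM in HEK-EV, and 45.3, 42.2 and 69.9 TPM in MSC-EV. Its order of samples was that of Clec4f, and its difference was -0.79 (adjusted p = 0.123). Paqr9 (-0.79, adjusted p = 0.0768) and Pcolce2 (-0.77, adjusted p = 0.0852) came nearest to the threshold. Slc11a1, the phagosomal metal transporter, was lower in MSC-EV than in HEK-EV by 0.30 (adjusted p = 0.0267) and was the 1 gene of this list called in any comparison. In HEK-EV against PBS, 15 of the 25 were lower, with a median of -0.06 and 0 called.

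Genes of all macrophages were set beside the Kupffer cell genes, because in bulk RNA fewer cells of a type and less RNA per cell cannot be told apart. Csf1r, the CSF1 receptor, was at 945 to 1150 TPM in PBS, 1063 to 1156 TPM in HEK-EV and 958 to 1075 TPM in MSC-EV. Adgre1, which encodes F4/80, was at 354 to 449 TPM in PBS, 442 to 473 TPM in HEK-EV and 386 to 460 TPM in MSC-EV. C1qa, of the complement C1q complex, was at 973 to 1249 TPM in PBS and 956 to 1311 TPM in MSC-EV. These 3 genes overlapped between PBS and MSC-EV, but others of the 17 on this list did not: Cd68, a lysosomal glycoprotein, was higher in MSC-EV (0.32, adjusted p = 0.0513), while Fcgr1 (-0.43, adjusted p = 0.0744) and Cd14 (-0.46, adjusted p = 0.182) were lower. In all, 11 of the 17 were higher and 6 lower, and limma called 1 in MSC-EV against PBS: Ptprc, the leukocyte antigen CD45, lower by 0.46 (adjusted p = 0.0271). Itgam, which encodes the CD11b used for the isolation, was 289 to 377 TPM in PBS and 196 to 255 TPM in MSC-EV (-0.53, adjusted p = 0.0553). Against HEK-EV, limma called Itgam (-0.70, adjusted p = 0.0257) and Ptprc (-0.53, adjusted p = 0.0207) lower in MSC-EV. Cd68 was called higher there (0.33, adjusted p = 0.0443).

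Relative to the mean log2 level of Csf1r, Adgre1, Mertk, C1qa, C1qb and C1qc in the same sample, 8 of the 10 genes were lower in every MSC-EV sample than in every PBS sample, beside 20.8% of all genes without overlap in either direction. This count rested on the reference genes: relative to the mean of all 17 genes of the pan-macrophage list, an alternative chosen after seeing the data, it was 2 of the 10 (Clec4f and Clec1b), beside 25.8% of all genes, as without any reference. The mean of the 6 was higher by 0.16 (log2) in MSC-EV than in PBS and that of the 17 differed by -0.01. The 17 include genes not confined to macrophages, such as the leukocyte gene Ptprc (-0.46) and the myeloid gene Itgam (-0.53). These were among the 6 of the 17 that were lower, while 11 were higher. With the 6, the exact permutation p was 0.1 for each of the 8, the smallest that 3 against 3 samples can give. Clec4f was -0.17, -0.07 and -0.12 in PBS and -1.40, -1.29 and -0.64 in MSC-EV on this log2 scale, a difference of -0.99. The other 7 were Vsig4 (-0.71), Cd5l (-0.61), Clec1b (-0.70), Cd163 (-1.01), Folr2 (-0.33), Id1 (-0.42) and Id3 (-0.33), and the 2 that overlapped were Marco (-1.18) and Spic (-0.12). The mean of the 6 reference genes was itself 9.20 to 9.56 in PBS and 9.34 to 9.67 in MSC-EV. On the same scale HEK-EV did not overlap with PBS for 4 of the 10 (Vsig4, Id1, Id3 and Folr2, all lower), beside 6.08% of all genes, and with the 17 genes for 0 of the 10, beside 7.33%. MSC-EV and HEK-EV overlapped for all 10, beside 19.7% of all genes without overlap, and with the 17 genes for all but Spic, beside 29.1%.

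**Figure D4:**
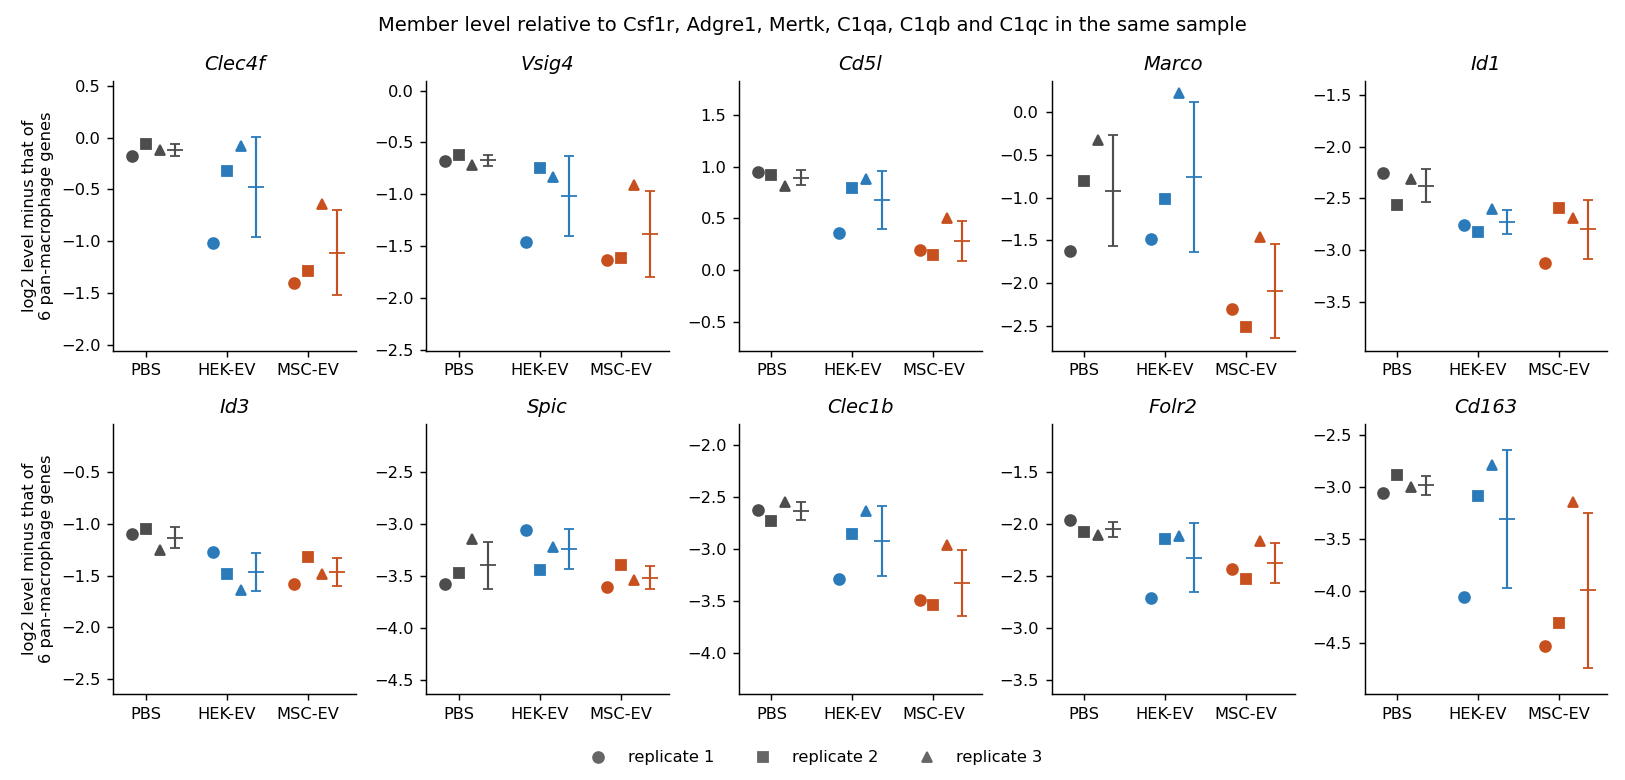
Level of each gene minus the mean level of 6 pan-macrophage genes in the same sample (log2, vertical axes), by group, with mean and SD (n = 3). The PBS samples lie close together for Clec4f (-0.17 to -0.07) and every MSC-EV sample is below them, which also holds for Vsig4, Cd5l, Id1, Id3, Clec1b, Folr2 and Cd163 with these 6 reference genes, but for Clec4f and Clec1b alone with all 17 of the list.

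Transcripts of liver sinusoidal endothelium moved with these genes. All 20 endothelial markers were lower on average in MSC-EV than in PBS, with a median of -0.81, and 19 of them had an unadjusted p under 0.05. Their summed level was 892 to 967 TPM in PBS, 705 to 1067 TPM in HEK-EV and 454 to 651 TPM in MSC-EV. Only Fcgr2b, which myeloid cells also express, passed in limma (-0.53, adjusted p = 0.0171). Lyve1 (24.6 to 29.5 TPM in PBS, 4.78 to 15.6 TPM in MSC-EV) and Clec4g (86.5 to 93.2 TPM in PBS, 32.1 to 62.2 TPM in MSC-EV) had adjusted p-values of 0.0731 and 0.0765. Stab2 was at 26.5 to 44.6 TPM in PBS and 12.8 to 30.8 TPM in MSC-EV (-0.78, adjusted p = 0.189). Without Fcgr2b, the 19 markers summed to 599, 560.2 and 514 TPM in PBS, 307, 529 and 715 TPM in HEK-EV, and 300.2, 206 and 375 TPM in MSC-EV. HEK-EV replicate 1 and MSC-EV replicates 1 and 2 were the 3 lowest, as for Clec4f. The r between their mean log2 level and Clec4f was 0.967 over the 9 samples (rho 0.983), and 0.946 for deviations from group means. Clec4g was 0.121 to 0.161 times Clec4f in every sample, and for Id3 and Spic the r with the 19 markers was 0.177 and 0.187. Their part in the result was not tested.

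**Figure D5:**
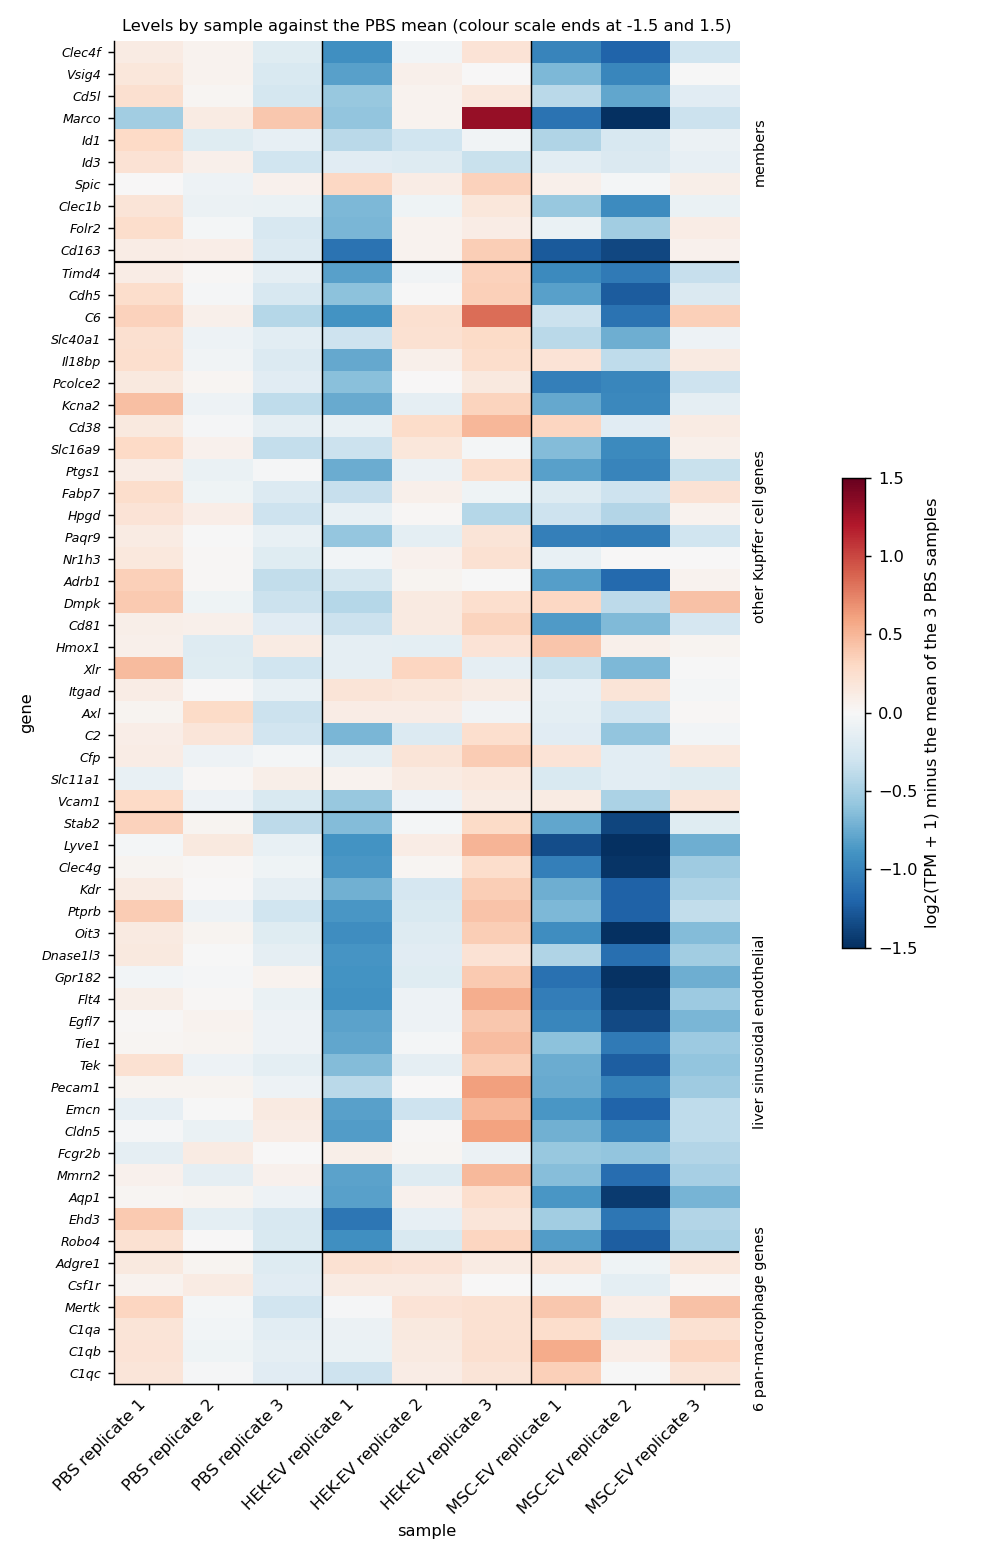
Each gene's log2(TPM + 1) minus the mean of the 3 PBS samples (colour, clipped at 1.5 in either direction) in the 9 samples (columns), for the 10 genes, 25 other Kupffer cell genes, 20 endothelial markers and 6 pan-macrophage genes (rows). HEK-EV replicate 1 and MSC-EV replicates 1 and 2 are mostly blue for Clec4f, Vsig4, Cd5l, Marco, Clec1b and Cd163 and through much of the endothelial block, and the pan-macrophage rows are pale.

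Other cell markers differed between groups as well. Of 14 monocyte genes, 13 passed the filter, all 13 were lower on average in MSC-EV than in PBS and 7 were called, including Vcan (-1.42, adjusted p = 0.0251), Nr4a1 (-0.79, adjusted p = 0.026), Chil3 (-1.40, adjusted p = 0.0353) and Ly6c2 (-1.35, adjusted p = 0.0376). Summed, they came to 7551 to 14630 TPM in PBS, 9468 to 12050 TPM in HEK-EV and 4739 to 5708 TPM in MSC-EV. Ly6c2 was at 504, 1226 and 1229 TPM in PBS, at 936 TPM in HEK-EV replicate 1, its highest value in that group, and at 337 to 381 TPM in MSC-EV. Of 18 hepatocyte genes past the filter, 17 were higher in MSC-EV than in PBS and 3 were called (Apoa1, Cyp2e1 and Trf), and Alb was at 135.1 to 185 TPM in PBS and 257 to 329 TPM in MSC-EV. The defining gene of peritoneal macrophages, Gata6, was below the filter, at 0.313 to 0.529 TPM in PBS and 0.501 to 0.586 TPM in HEK-EV. It was higher in every MSC-EV sample (0.654 to 1.25 TPM). Pancreatic acinar genes made up 0.00133% to 0.0015% of TPM in PBS, 0.00392%, 0.11% and 0.00154% in HEK-EV replicates 1 to 3, and 0.0149%, 0.00138% and 0.314% in MSC-EV replicates 1 to 3, so they were high in single samples of both vesicle groups. With the acinar share as a term (above or below 0.003%), the Clec4f difference of MSC-EV from PBS was -0.79 (adjusted p = 0.346, within 0.0121 to 0.394 over all 20 alternatives, limma). All 3 PBS samples lay below 0.003%, so this term did not vary within PBS. Of 15 neutrophil genes, 13 passed the filter, of which 10 were lower and 3 higher in MSC-EV than in PBS (median -0.27), and 1 of the 3, Ltf, was called (0.87, adjusted p = 0.0348). Of the peritoneal list, Icam2 (-0.38, adjusted p = 0.0244) and Fabp4 (0.89, adjusted p = 0.038) were called, and of the lymphocyte list Nkg7 (0.70, adjusted p = 0.0424). No gene of the dendritic cell and capsule macrophage list was called, the lowest adjusted p being 0.0812, nor of the acinar list (0.263) or for the 1 erythroid gene past the filter (0.128). The part of these cell markers in the Kupffer cell values was not tested.

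Of the niche pathways, BMP, TGF-beta and SMAD signalling had 26 of 31 genes past the filter, of which 18 were lower and 8 higher in MSC-EV than in PBS (median -0.07). In that comparison 1 of them was called, Id4, a relative of Id1 and Id3 (-0.77, adjusted p = 0.0489, limma). It was at 1.41 to 1.67 TPM in PBS and 0.353 to 0.827 TPM in MSC-EV. No MSC-EV sample reached 1 TPM, so Id4 passed the filter only through the other groups. Its call was kept in 3 of the 9 fits that left out 1 sample. Against HEK-EV, MSC-EV had lower Tgfb1, the ligand (-0.35, adjusted p = 0.0215), and lower Smad3, which relays TGF-beta signals (-0.65, adjusted p = 0.0205). The BMP ligand gene Bmp2 was at 9.91 to 13.2 TPM in PBS and 3.72 to 6.87 TPM in MSC-EV, without overlap and with an adjusted p of 0.0739. Smad1, Smad4 and Smad5, which relay BMP signals, differed by -0.12 to 0.06 and had adjusted p-values of 0.426, 0.609 and 0.729.

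Notch signalling had 15 of 21 genes past the filter, 11 of them lower in MSC-EV than in PBS (median -0.18). Hes1, the repressor that Notch induces, was called: 33.5, 37.9 and 32.7 TPM in PBS, 29.5, 31.8 and 33.0 TPM in HEK-EV, and 14.8, 19.1 and 22.0 TPM in MSC-EV (-0.87, adjusted p = 0.0154). HEK-EV replicate 1, low for Clec4f, was nearer to the PBS samples than to the MSC-EV samples for Hes1, and the call was kept in 6 of the 9 fits that left out 1 sample (adjusted p = 0.00684 to 0.0908, limma). Rbpj, the DNA-binding partner of Notch, was lower in MSC-EV than in HEK-EV (-0.35, adjusted p = 0.0341) and did not pass against PBS (adjusted p = 0.0774).

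Heme and iron handling, a task of Kupffer cells, went with Spic and Cd163 as background. Of its 20 genes, 16 were higher and 4 lower in MSC-EV than in PBS (median 0.16), and limma called Trf, transferrin, higher (0.43, adjusted p = 0.0386) and Bach1, the heme-sensing repressor, lower (-0.39, adjusted p = 0.038). Trf is also a hepatocyte gene. Among scavenger receptors, 14 of 16 passed the filter. Stab1 (0.95, adjusted p = 0.0457) and Scara3 (1.12, adjusted p = 0.0265) were called higher and Scarb1, the HDL receptor (-0.56, adjusted p = 0.0213), lower, so this list held calls in both directions. Of 20 relatives by family, 13 passed and Clec4n, which encodes Dectin-2, was called lower (-0.37, adjusted p = 0.0315), while the ETS gene Spi1 was at 503.5 to 542 TPM in PBS and 452 to 469 TPM in MSC-EV (-0.20, adjusted p = 0.0546). In HEK-EV against PBS, 0 genes of any of these lists were called.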

How the data were processed

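RNA of CD11b+ cells was extracted with Trizol and treated with DNase before TruSeq Stranded mRNA library preparation, per the labels' protocols. HISAT2 2.1.0, StringTie and mm10 are named in the submitters' processing notes, and the StringTie version, annotation and strand setting are not given in the sources used here. Each deposited table held coverage, FPKM and TPM per Entrez gene ID, per the file headers. TPM was used as deposited by the authors, summing to 1000000 per sample. FPKM (fragments per kilobase and 1000000 fragments) as deposited served an alternative. The authors' coverage signal divided by FPKM gave relative depth. It was 5.278 to 6.317 in PBS, 6.25 to 6.47 in HEK-EV and 6.585 to 6.845 in MSC-EV. All MSC-EV samples lay above all others, so the depth term is not separate from that group. No counts were used here, so the depth behind each value is unknown and no counting interval was computed.

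Symbols came from RefSeq GRCm38.p6 (45679 of 45777 IDs, 99.79%), and rows of a gene ID were summed. A linear model with a trended empirical Bayes variance (limma 3.58.1, R 4.3.3) was fitted to log2(TPM + 1) of 13820 genes in all 9 samples without covariates. Adjusted p is Benjamini-Hochberg over all genes, two-sided, threshold 0.05. Differences on that scale understate low genes. The fit was checked on simulated data. Group comparisons relative to 6 pan-macrophage genes used exact two-sided permutation tests (scipy 1.17.1, smallest p 0.1). The genes and lists were chosen with earlier results of these data known. Named were the 10 genes, per list at most 4 genes past the threshold by smallest p or 2 where none passed, set defining markers, and at most 5 most similar genes per member. Bmp2, Spi1, Smad1, Smad4, Smad5, Gp9, Cd68, Fcgr1, Cd14, Gm10602, Gm52877 and Clec12b were named after values or positions were seen. Alternatives were another pseudocount, filter, unit, scaling or sample set, weights, a replicate block, depth and acinar terms, leaving out each sample, and 17 reference genes.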

Additional observations from a re-analysis of the deposited data

How the results depend on the processing

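Under the 20 alternatives per comparison (FPKM, median-of-ratios scaling, quantile normalization, a pseudocount of 0.1, filters of none or 5 TPM, only the 6 samples compared, a replicate block, array quality weights, an acinar term, depth, and 9 omissions of a sample), the count of the 10 genes called stayed at 0 in all 3 comparisons. The exception was array quality weights, which called 4 of the 10 in MSC-EV against PBS, beside 4163 of the 13820 genes tested. The planned acinar split at 0.001% could not be fitted, as all 9 samples lay above it, and 0.003% was chosen after seeing the data. With the replicate block, Clec4f gave -0.83 (adjusted p = 0.142) and the count stayed at 0. Same-numbered samples did not deviate together (r from -0.50 to 0.06, 0 of 9 closest to their own number), so the numbers were not taken as pairs. Of 870 alternative values for single genes, 40 had another sign.

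With depth as a covariate the sign turned in MSC-EV against PBS for Id1 (0.0448), Id3 (0.132) and Folr2 (0.158), in HEK-EV against PBS for Cd5l (0.0695), Marco (-0.0396) and Folr2 (0.016), and in MSC-EV against HEK-EV for Id1 (0.115). Id1 in MSC-EV against HEK-EV also turned with FPKM (0.0551), median-of-ratios scaling (0.0185) and quantile normalization (0.07), and Folr2 with weights (-0.0668). Leaving out 1 sample at a time, HEK-EV against PBS ran from -0.483 to 0.0798 for Clec4f, -0.403 to 0.0417 for Vsig4, -0.256 to 0.107 for Cd5l, -0.374 to 0.0526 for Clec1b, -0.316 to 0.0804 for Folr2, -0.527 to 0.208 for Cd163 and -0.27 to 0.684 for Marco. MSC-EV against HEK-EV ran from -0.248 to 0.184 for Folr2 and -0.099 to 0.0881 for Id1, and MSC-EV against PBS from -0.308 to 0.00839 for Folr2. Relative to pan-macrophage genes, leaving out 1 sample gave -0.205 to 0.0107 for Spic in MSC-EV against PBS, -0.334 to 0.522 for Marco and -0.591 to 0.0461 for Cd163 in HEK-EV against PBS, and -0.177 to 0.0883 for Id1, -0.0871 to 0.0965 for Id3 and -0.247 to 0.0516 for Folr2 in MSC-EV against HEK-EV. Relative to all 17 pan-macrophage genes in place of 6, Spic turned in MSC-EV against PBS (0.0543), and Id1 (0.0559) and Folr2 (0.0744) turned in MSC-EV against HEK-EV. In MSC-EV against PBS the range over all 20 alternatives was -1.1 to -0.644 for Clec4f, -1.52 to -0.713 for Marco, -1.31 to -0.597 for Cd163 (-1.31 without MSC-EV replicate 3), -0.825 to -0.335 for Vsig4, -0.755 to -0.301 for Clec1b, -0.596 to -0.136 for Cd5l, -0.351 to 0.0448 for Id1, -0.318 to 0.132 for Id3 and 0.00783 to 0.11 for Spic. Depth as a covariate gave the smallest difference for Vsig4 (-0.335), Clec1b (-0.301) and Cd5l (-0.136), which without MSC-EV replicate 2 were -0.342, -0.337 and -0.287. The cause of these shifts was not tested. Over all genes, the 706 calls of MSC-EV against PBS became 361 with no filter, 77 with only the 6 samples, 404 with the replicate block, 4163 with weights, 21 with the acinar term, 1447 with depth and 5 to 1861 with 1 sample left out. The 817 of MSC-EV against HEK-EV became 387 with no filter, 459 with FPKM, 512 with median-of-ratios scaling, 448 with the block, 2081 with weights, 1516 with depth and 0 to 1369 with 1 sample left out. The 0 of HEK-EV against PBS became 4 with no filter and up to 2 with 1 sample left out.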
